A study of Mus musculus with 6 samples.

Results

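The collagen genes were taken as the protein-coding mouse genes with a collagen chain symbol (Col, a type number, a, a chain number). They numbered 44 of the 55401 genes in the count tables, and 31 of the 44 passed the filter on low counts together with 18539 genes in all. They were read in NIH3T3 cells, a mouse embryonic fibroblast line, by poly(A) RNA sequencing of 6 libraries. Empty vector cells (EV, 2 libraries) and cells expressing the TAZ-CAMTA1 fusion (TC, 1 library) received the vehicle DMSO. TC cells treated with 10 µM aurintricarboxylic acid (TC + ATA, 3 libraries) received the compound for 48 h, and all cells had been seeded for 16 h beforehand. TAZ-CAMTA1 is the fusion oncoprotein of epithelioid hemangioendothelioma and acts with TEAD transcription factors, and ATA was studied as a disruptor of TAZ-TEAD binding. TC was stably expressed in the line from an exogenous construct and EV cells were transfected with the vector. No EV cells treated with ATA are among the libraries, so ATA was only read in cells that carry the fusion. The labels do not say whether replicates were separate cultures, so p-values measure the spread between these libraries, which may be technical.

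Collagens are built from 3 chains wound into a triple helix, and the gene encoding a chain decides which type of molecule it can join. Fibrillar collagens (types I, II, III, V, XI, XXIV and XXVII) assemble into the cross-striated fibrils of connective tissue, and types V and XI nucleate fibrils and limit their diameter. Type IV collagen forms the sheet-like network of basement membranes. FACIT collagens sit on the surface of fibrils, type VI forms beaded microfilaments close to cells, and type VII forms anchoring fibrils beneath epithelia. Fibroblasts are the main source of types I, III, V and VI.

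Library totals were 74413193 and 70428345 counts for EV, 71677675 for TC, and 58471484, 72252063 and 69969024 for TC + ATA. The EV libraries stood apart from each other more than the TC + ATA libraries did, with a chi-square per degree of freedom over genes of 61.3 between the EV libraries and of 5.864 to 6.608 between the TC + ATA libraries. Between the TC library and the TC + ATA libraries it was 22.79 to 24.73, and between EV and the TC-expressing libraries 219.9 to 262.7. The TC group is a single library, so every test involving it borrows its spread from the EV and TC + ATA libraries. Fibroblast identity was checked with 10 markers, all of which had more than 3 counts in every library. Vim was the most abundant of them (3431 and 2789 CPM, counts scaled to the library size, in EV, 4847 in TC and 4353, 4206 and 4040 in TC + ATA), and the 10 summed to 6289 to 7579 CPM. The 6 endothelial markers summed to 1.82 to 3.89 CPM (Pecam1 highest on average), the 6 epithelial markers to 1.30 to 3.93 CPM (Krt14 highest, 1.19 to 3.45 CPM) and the 4 immune markers to 2.73 to 8.54 CPM (Ptprc highest on average, 0.281 to 5.33 CPM). None of these markers was at 0 in every library, and Krt5, Krt18, Epcam and Itgam were at or below 0.0575 CPM throughout. Within the fibroblast list, Pdgfra, Thy1, Fn1, Lum and Dcn were lower in TC than in EV (log2 fold changes -1.20, -1.47, -0.83, -1.27 and -2.08, adjusted p 1.307e-05, 1.026e-05, 0.002587, 0.01797 and 1.388e-05 by edgeR's quasi-likelihood test) and Vim and Ddr2 were higher (0.64 and 0.65, adjusted p 0.006584 and 0.0004127), while Pdgfrb, S100a4 and Fbn1 did not pass the test. Among the other lists Cdh5 (1.55, adjusted p = 0.03855) and Krt14 (1.09, adjusted p = 0.04864) were higher in TC. The part of these markers in the collagen results was not tested. In bulk RNA, fewer cells of a kind and less RNA per cell cannot be told apart.

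The annotated starts of several collagen genes lie close together and are shown here because their partners are compared below. Col4a1 and Col4a2 are transcribed away from each other on chromosome 8, and in RefSeq (GRCm38.p6) their first exons overlap by 22 bases at chr8:11312805-11312826, printed on the strand of Col4a2 with the shared bases in capitals.
Col4a2: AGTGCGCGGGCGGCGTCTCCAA
The same arrangement holds for Col4a5 and Col4a6 on chromosome X, with 1342 bases between the starts. The 216 bases before the first annotated exon of Col4a5 (chrX:141475169-141475384, plus strand) and the 250 bases before Col7a1 (chr9:108953336-108953585, plus strand) hold no annotated exon, and both genes were higher in TC. Neither holds either of the motifs below.
Col4a5: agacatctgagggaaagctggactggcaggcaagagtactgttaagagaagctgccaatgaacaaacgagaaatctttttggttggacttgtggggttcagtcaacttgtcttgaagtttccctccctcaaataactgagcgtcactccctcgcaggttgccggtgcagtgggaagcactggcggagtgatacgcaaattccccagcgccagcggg
Col7a1: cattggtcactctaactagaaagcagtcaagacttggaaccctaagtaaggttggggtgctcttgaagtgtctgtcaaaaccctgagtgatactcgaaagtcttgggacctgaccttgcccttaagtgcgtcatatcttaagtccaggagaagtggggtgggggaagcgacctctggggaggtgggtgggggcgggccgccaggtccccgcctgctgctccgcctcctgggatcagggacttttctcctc

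Promoter windows (RefSeq, 250 bases before to 50 after each start, GRCm38.p6) were searched on both strands for the core of the TEAD site, GGAATG, and for the AP-1 site, TGANTCA. The motifs can share 2 letters where one follows the other, and no collagen window held both. Windows were given for 35 of the 44 collagen genes and not for Col1a1, Col5a2, Col12a1, Col9a3, Col22a1, Col14a1, Col2a1, Col4a3 and Col26a1. GGAATG was found for 5 of the 35 genes (14.3%), against 16.6% of the 27025 genes with a window and 14.7% of the 32851 windows. TGANTCA was found for 1 of the 35 (2.86%), against 8.97% of genes and 7.81% of windows. Of the 8 collagens with a window that were higher in TC than in EV, 1 held GGAATG (Col4a6), and of the 8 that were lower, 1 held it (Col6a2) and 1 held TGANTCA (Col6a1). A match is a description of letters in a window and says nothing about binding. The matches are printed with 10 bases on each side and the motif in capitals, Col4a6 at chrX:141474066-141474091, Col6a2 at chr10:76623504-76623529 and Col6a1 at chr10:76726118-76726144, all on the minus strand, with the motif beginning at positions -5, -115 and -90 from the RefSeq start. Each of these 3 stretches overlaps 1 exon of the GENCODE M21 annotation.
Col4a6: cgtccccctcCATTCCttcctccctg
Col6a2: tcccccagctCATTCCccagcttcat
Col6a1: gctgatgctgTGACTCActcagctttg
The remaining GGAATG matches were in Col3a1 (chr1:45311360-45311385, plus strand), Col20a1 (chr2:180986427-180986452, plus strand) and, at 2 places, Col18a1 (chr10:77113794-77113819 and chr10:77113744-77113769, minus strand), none of which passed the test in TC versus EV.

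The type I chains dominated the collagen RNA of every library. Per kilobase of annotated exon, the mean level over the 6 libraries was 570.5 CPM per kb for Col1a1, 519.0 for Col1a2, 158.3 for Col6a1, 93.2 for Col3a1, 60.4 for Col4a1, 49.99 for Col6a2, 49.9 for Col5a1, 49.8 for Col5a2, 40.0 for Col4a2 and 39.7 for Col4a5. This mean pools the groups, and the order differed between them. In EV the type I chains (459.5 and 432.6 CPM per kb) were followed by Col6a1 at 258.0, Col6a2 at 89.1, Col3a1 at 88.2, Col16a1 at 55.0, Col5a2 at 40.8, Col5a1 at 38.4 and Col4a1 at 30.6, and Col6a2 (94.8 and 83.3 in the 2 libraries) overlapped Col3a1 (84.6 and 91.7). In TC they (663.7 and 533.0) were followed by Col3a1 at 91.2, Col6a1 at 90.2, Col4a1 at 71.8, Col5a1 at 52.2, Col4a2 at 47.98, Col5a2 at 47.8, Col4a5 at 42.3, Col16a1 at 26.7 and Col6a2 at 25.4, and with 1 library their separation has no replicate check. In TC + ATA (613.6 and 572.0) came Col6a1 at 114.6, Col3a1 at 97.3, Col4a1 at 76.5, Col5a1 at 56.7, Col5a2 at 56.5, Col4a5 at 51.8, Col4a2 at 49.7, Col16a1 at 32.7 and Col6a2 at 32.1. There Col5a1 overlapped Col5a2, Col4a5 overlapped Col4a2, and Col16a1 overlapped Col6a2. The order of the 2 type I chains depends on the length used, since by the longest transcript Col1a2 stood at 1206 CPM per kb and Col1a1 at 631.5, and 9 of these 10 genes remained among the 10 highest. At the other end, 13 genes did not pass the filter: Col8a2, Col2a1, Col9a2, Col23a1, Col24a1, Col9a1, Col6a5, Col25a1, Col6a6, Col4a3, Col19a1, Col13a1 and Col26a1. Col26a1 had 0 counts in all 6 libraries, which allows up to 0.0403 to 0.0513 CPM in each (3 counts, for counting error only). Col2a1, the main collagen of cartilage, had 4 to 8 counts per library.

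**Figure D1:**
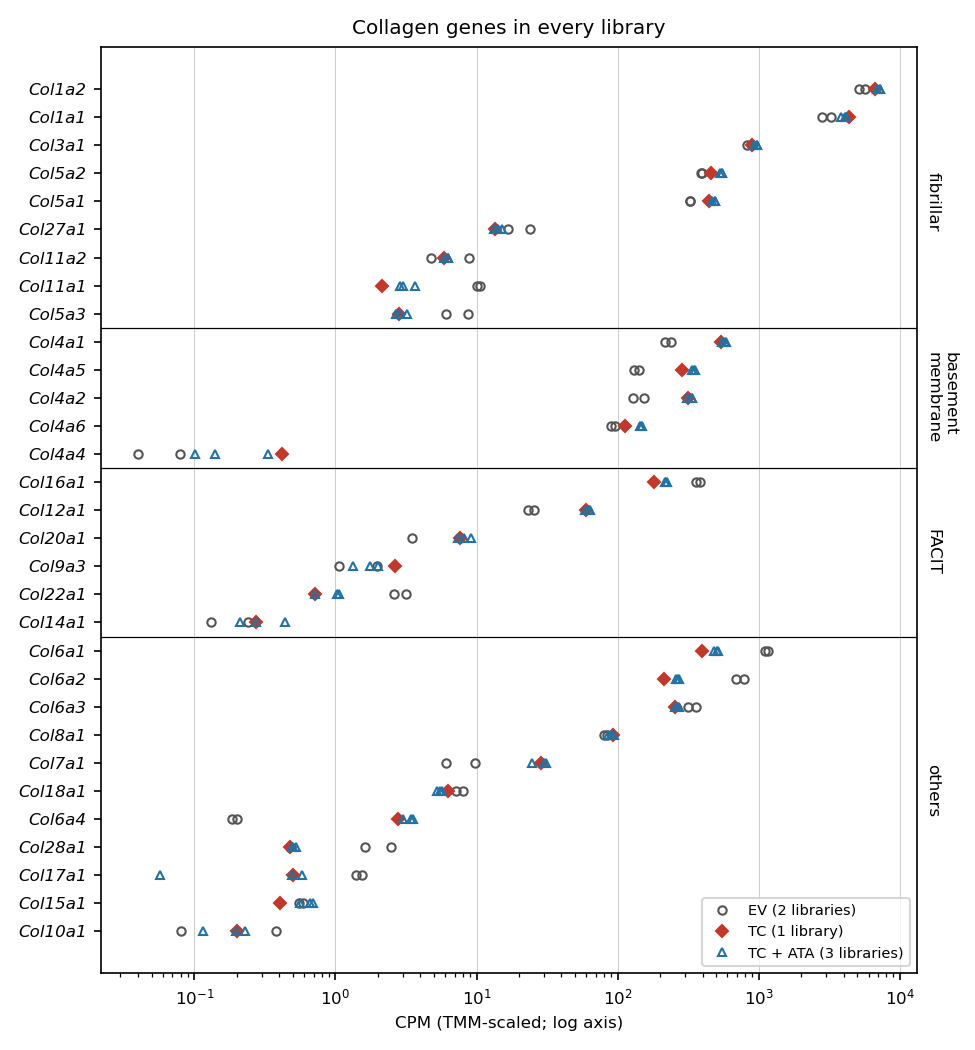
Level of each of the 31 tested collagen genes in every library (x axis, TMM-scaled CPM on a log axis; y axis, genes grouped by class and ordered by mean CPM). Open circles are the 2 EV libraries, filled diamonds the TC library and open triangles the 3 TC + ATA libraries; Col1a2 lies between 5128 and 7229 CPM and Col6a1 splits into 2 EV points at 1106 and 1154 CPM and 4 points at or below 516.3 CPM.

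The make-up of the collagen RNA differed between EV and the TC-expressing cells. All 44 genes together took 1.393% and 1.387% of the counts in the EV libraries, 1.481% in TC and 1.587%, 1.593% and 1.532% in TC + ATA. Fibrillar collagens went from 1.050% and 1.038% in EV to 1.240% in TC and 1.305%, 1.308% and 1.258% in TC + ATA. Basement membrane collagens took 0.0619% and 0.0631% in EV, 0.121% in TC and 0.138%, 0.139% and 0.134% in TC + ATA. The remaining collagens other than FACIT went the opposite way, from 0.242% and 0.240% to 0.0963% in TC and 0.114%, 0.117% and 0.112% in TC + ATA, and most of that was type VI, at 0.232% and 0.229% in EV, 0.0837% in TC and 0.102%, 0.105% and 0.0997% in TC + ATA. FACIT collagens took 0.0393% and 0.0455% in EV, 0.0243% in TC and 0.0288%, 0.0289% and 0.0288% in TC + ATA. In each class the EV libraries lay on one side of all 4 TC-expressing libraries, which mix vehicle and ATA. How many of all genes separate in this way was not counted. Within the collagen RNA counted per kilobase, type VI went from 23.4% and 23.7% in EV to 7.83% in TC and 9.16%, 9.42% and 9.34% in TC + ATA, and basement membrane chains went from 5.21% and 5.32% to 10.1% in TC and 10.8% in each TC + ATA library. These shares are sums over members and were not tested.

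**Figure D2:**
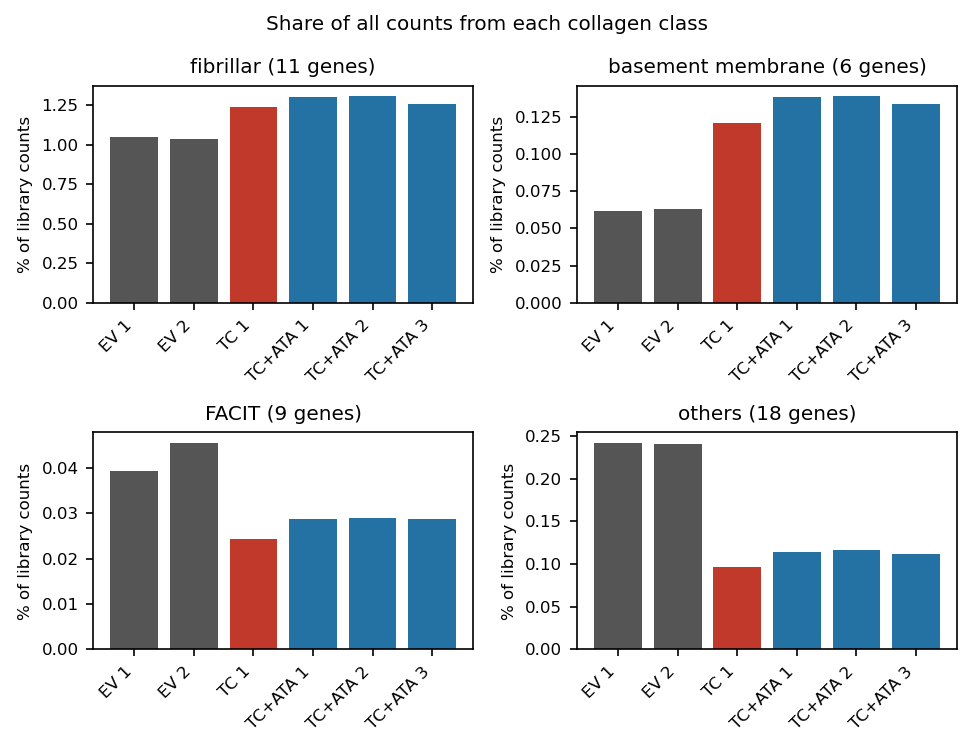
Percent of all counts of a library that came from each collagen class (y axes start at 0 and differ between panels; x axis, the 6 libraries; grey EV, red TC, blue TC + ATA). Fibrillar and basement membrane bars are higher in the 4 TC-expressing libraries than in EV, and the FACIT and other bars are lower.

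TC was compared with EV to read what the fusion-expressing cells did with the collagen genes. Of the 31 genes tested, 10 were higher in TC and 9 were lower at an adjusted p of at most 0.05 (edgeR's quasi-likelihood test, Benjamini-Hochberg over all genes tested), where 14.8% of the 18539 genes were called higher and 13.2% lower. All 5 tested type IV chains were among the higher genes and 4 of the 11 genes outside the main classes were among the lower. With the additional limit of an absolute log2 fold change of 2, which the study used, 4 collagens remained (Col6a4 and Col4a4 higher, Col11a1 and Col28a1 lower), against 3.64% of all genes tested. Col4a4, counted here and among the type IV chains, passed the filter on low counts only through TC-expressing libraries. The median log2 fold change was 0.18 over the collagens and -0.03 over all genes tested. Above 0 were 17 of the 31 collagens and 8900 of the 18539 genes. The comparison of TC + ATA with EV has replicates on both sides but shares the EV libraries. It called 11 collagens higher and 11 lower, against 18.0% and 18.6% of all genes, with medians of 0.16 and -0.01. Its groups differ in both the fusion and the compound, which it cannot tell apart. Without EV replicate 1 the collagen calls in TC versus EV were 12 higher and 10 lower (7417 genes called in all, against 5191 with every library), and without EV replicate 2 they were 14 and 8 (7343). Both of these fits set 1 EV library against 1 TC library and take all their spread from the TC + ATA libraries, which differed less than the EV libraries did, so the calls they gained, Col1a2 and Col5a2 among them, are not support for a change. Without TC + ATA replicates 1, 2 and 3 in turn they were 9 and 8, 7 and 7, and 8 and 9 (4339, 4054 and 4064 genes called in all), and in the fit of EV and TC alone 7 and 8 (3315). The collagen median moved with the EV libraries and with scaling. In TC versus EV it was 0.01 without EV replicate 1 (0.006606 before rounding), and in TC + ATA versus EV it was 0.11 without EV replicate 1 and 0.34 without EV replicate 2, and with library totals the medians were 0.08 and 0.06. Scaling by library totals alone shifted the median of all genes by -0.11 and the share of called genes that were higher from 52.7% to 39.6% in TC versus EV and from 49.2% to 38.2% in TC + ATA versus EV. The collagen calls were then 9 higher and 8 lower in TC versus EV and 11 and 11 in TC + ATA versus EV.

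**Figure D3:**
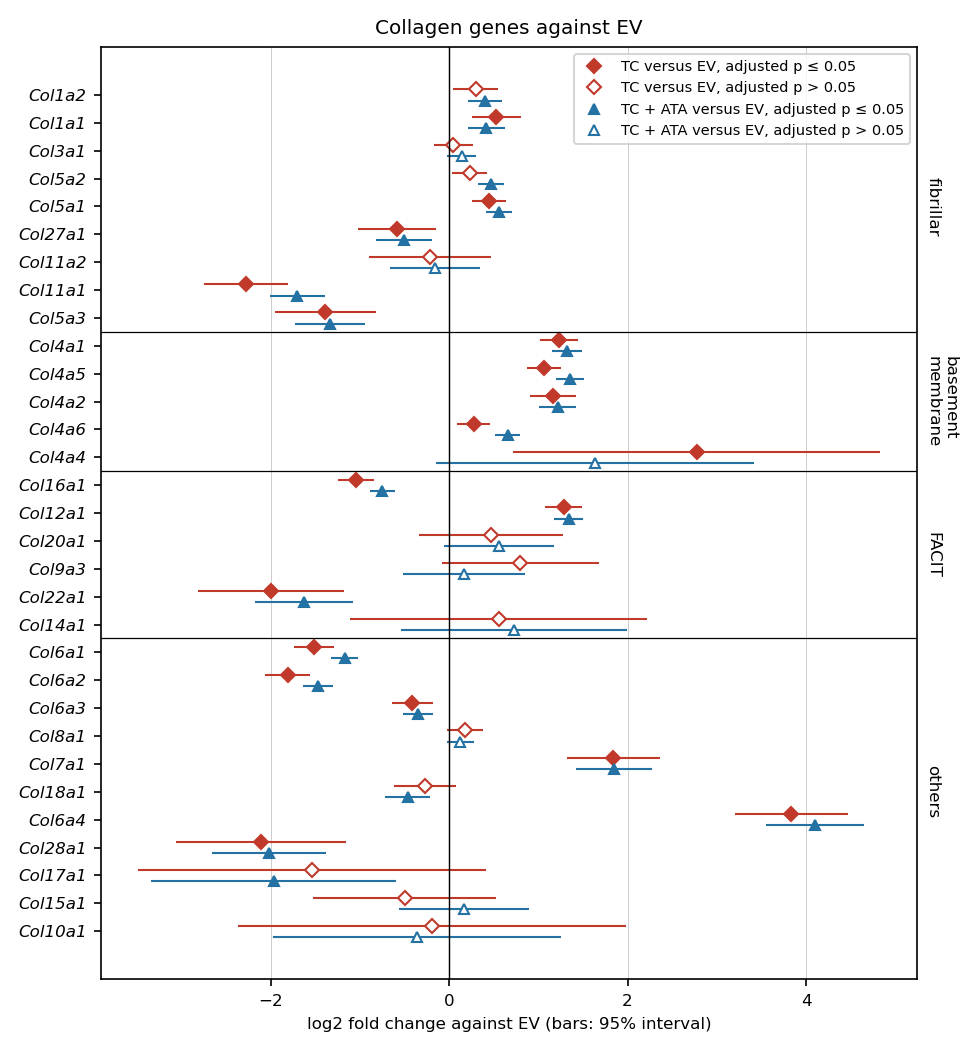
Log2 fold change of each tested collagen gene against EV (x axis; bars, 95% interval from the fit; y axis, genes by class), with red diamonds for TC and blue triangles for TC + ATA, and filled symbols for an adjusted p of at most 0.05. The type IV chains lie right of 0, Col6a1, Col6a2 and Col6a3 lie left of it, and Col6a4 is farthest right at 3.84 and 4.10.

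Among the fibrillar collagens, 2 of 9 were higher in TC than in EV (22.2%, against 14.8% of all genes) and 3 were lower (33.3%, against 13.2%). Col1a1 (ENSMUSG00000001506, chr11:94936224-94953042, plus strand) and Col1a2 (ENSMUSG00000029661, chr6:4504814-4541544, plus strand) encode the chains of type I collagen, the main fibril protein of skin, tendon and bone. Col1a1 stood at 3240 and 2791 CPM in EV, 4356 in TC and 4178, 4064 and 3838 in TC + ATA. Col1a2 stood at 5623 and 5128 CPM in EV, 6623 in TC and 7223, 7229 and 6872 in TC + ATA. For both chains the EV libraries lay below all others, a separation whose share over all genes was not counted. Col1a1 was 1.44-fold higher in TC (log2 fold change 0.53 ± 0.12 SE, adjusted p = 0.01028). That call was lost when TC + ATA replicate 2 was left out (adjusted p = 0.05045) and when only the EV and TC libraries entered the fit (0.3178). It was also lost with a replicate block (0.1457). Col1a2 did not pass in TC with edgeR (0.30 ± 0.11, adjusted p = 0.07647), although it was called higher by DESeq2 (adjusted p = 0.005289), with library totals (0.03104) and with every gene of at least 1 count tested (0.03925). It passed in TC + ATA versus EV at 0.40 ± 0.08 (adjusted p = 0.0054). The TC + ATA versus EV calls of both type I chains were lost without TC + ATA replicate 1 (adjusted p 0.05829 and 0.05692) or replicate 2 (0.05604 and 0.06266). A replicate block ended both calls as well (0.05414 and 0.07991).

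Col3a1, whose product forms fibrils together with type I, gave 830.5 and 900.0 CPM in EV, 895.0 in TC and 964.8, 976.7 and 924.6 in TC + ATA, so that TC lay inside the EV range. Its log2 fold change in TC was 0.05 (95% interval -0.17 to 0.27), and it turned to -0.06 with library totals and to -0.01 without EV replicate 1. Col3a1 shares 141 exon bases with Gm47302 on its own strand. Col5a1 stood at 324.1 and 327.5 CPM in EV, 443.6 in TC and 491.3, 488.4 and 465.0 in TC + ATA. It was higher in TC (0.45 ± 0.08, adjusted p = 0.004197), a call lost in the fit of EV and TC alone (0.1597) and with a replicate block (0.07239). In TC + ATA it was higher too (0.56 ± 0.06, adjusted p = 0.0001687). It shares 212 exon bases with genes on the opposite strand, and the strand setting of the counting is not given in the sources used here. Col5a2 stood at 393.5 and 388.7 CPM in EV, 458.8 in TC and 546.3, 551.6 and 528.8 in TC + ATA, with an adjusted p of 0.07443 in TC and 0.0004626 in TC + ATA versus EV. In TC it was called higher by DESeq2 (0.01379) and with a filter of 1 CPM in 2 libraries (0.03728).

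The minor fibrillar chains went down or did not pass. Col11a1, a chain of the fibril-nucleating type XI collagen, fell from 10.1 and 10.6 CPM in EV to 2.13 in TC, with 2.85, 3.67 and 3.01 in TC + ATA (log2 fold change -2.28 ± 0.21 in TC, adjusted p = 5.821e-05, and -1.70 ± 0.14 in TC + ATA, adjusted p = 1.678e-05). Col5a3, another type V chain, fell from 6.11 and 8.67 CPM to 2.82 in TC and 2.68 to 3.21 in TC + ATA, and its log2 fold change was -1.39 in TC (adjusted p = 0.003154). Col27a1 stood at 16.7 and 23.8 CPM in EV, 13.5 in TC and 14.2, 13.4 and 15.2 in TC + ATA. It passed narrowly in TC, at -0.59 (adjusted p = 0.04982), and was not called with a replicate block. That call was lost with upper quartile scaling, with library totals, with a filter of 1 CPM in 2 libraries, in the fit of EV and TC alone, without EV replicate 2 and without any 1 of the TC + ATA libraries. Col11a2 (4.77 and 8.92 CPM in EV, 5.92 in TC) did not pass. The EV libraries differed widely for Col5a3, Col27a1 and Col11a2, EV replicate 2 being the higher, and lay close together for Col11a1.

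Of the 5 basement membrane chains tested, Col4a1, Col4a2, Col4a5 and Col4a6 were called higher than EV in both TC and TC + ATA. Over all genes, 14.8% and 18.0% were called higher in these comparisons. Col4a4 was called higher in TC only. It passed the filter on low counts only through TC-expressing libraries, so its call adds no support. Type IV molecules are assembled from 2 Col4a1 chains with 1 Col4a2 chain in most tissues, while Col4a5 and Col4a6 chains form a separate network of some epithelia and smooth muscle. Col4a1 (ENSMUSG00000031502, chr8:11198423-11312826, minus strand) stood at 239.7 and 216.6 CPM in EV, 535.9 in TC and 586.4, 574.1 and 552.5 in TC + ATA. Col4a2 (ENSMUSG00000031503, chr8:11312805-11449287, plus strand) stood at 154.9 and 128.4 CPM in EV, 317.6 in TC and 337.7, 337.7 and 311.9 in TC + ATA. Col4a5 (ENSMUSG00000031274, chrX:141475385-141689234, plus strand) stood at 131.3 and 141.0 CPM in EV, 284.2 in TC and 350.5, 356.2 and 336.3 in TC + ATA. In these 3 genes every TC-expressing library was well above both EV libraries, and the share of all genes separated so was not counted. The folds in TC were 2.35 for Col4a1 (log2 1.23 ± 0.09, adjusted p = 1.89e-05), 2.24 for Col4a2 (1.16 ± 0.11, adjusted p = 8.47e-05) and 2.09 for Col4a5 (1.06 ± 0.08, adjusted p = 2.584e-05), and in TC + ATA versus EV they were 2.50, 2.32 and 2.55.

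Col4a6 (ENSMUSG00000031273, chrX:141165403-141474076, minus strand), the head-to-head partner of Col4a5, had the smallest log2 fold change of the 5. It stood at 89.6 and 96.5 CPM in EV, 112.7 in TC and 149.6, 146.4 and 144.5 in TC + ATA. Its log2 fold change was 0.28 ± 0.08 in TC (adjusted p = 0.03324) and 0.66 ± 0.06 in TC + ATA (adjusted p = 4.879e-05). The call in TC was lost without any 1 of the TC + ATA libraries (adjusted p 0.08307, 0.09827 and 0.08405). It was also lost with library totals (0.2365), in the fit of EV and TC alone (0.3081) and with a replicate block (0.1747). Col4a4 rested on few counts, 3 and 6 in EV, 29 in TC and 19, 10 and 7 in TC + ATA. Both EV libraries were under the filter's minimum count of 10, so the gene was tested only because TC-expressing libraries were higher. Its call in TC (log2 fold change 2.78, 95% interval 0.72 to 4.83, adjusted p = 0.04936) was lost under DESeq2 (adjusted p = 0.05371), with upper quartile scaling (0.05041) or library totals (0.06123), and without EV replicate 1 (0.1092), TC + ATA replicate 2 (0.08088) or replicate 3 (0.06602). A replicate block ended the call as well (adjusted p = 0.1798). The head-to-head partner of Col4a4, Col4a3, had 0 to 4 counts per library and was not tested. These chains belong to the network of the kidney glomerulus.

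Of the FACIT collagens, 1 of 6 was higher in TC than in EV (16.7%, close to the 14.8% of all genes) and 2 were lower (33.3%, against 13.2%). Col12a1, which decorates type I fibrils in tissues under tension, went from 25.5 and 23.1 CPM in EV to 59.3 in TC and 63.3, 62.4 and 58.9 in TC + ATA, a 2.44-fold increase in TC (log2 1.29 ± 0.09, adjusted p = 1.227e-05). Col16a1 was the most abundant FACIT gene and went from 357.1 and 385.0 CPM in EV to 180.5 in TC and 222.6, 221.4 and 218.2 in TC + ATA, 2.05-fold lower in TC (log2 -1.04 ± 0.09, adjusted p = 3.777e-05). Col22a1, a FACIT of tissue junctions, fell from 3.14 and 2.61 CPM to 0.720 in TC and 1.02, 0.719 and 1.06 in TC + ATA (log2 -1.99 in TC, adjusted p = 0.003285). Col20a1, Col9a3 and Col14a1 did not pass in either comparison with EV. The EV libraries disagreed over Col20a1, at 3.48 and 7.65 CPM.

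Among the 10 collagens highest per kilobase in the mean over the 6 libraries, those called lower in TC were Col6a1 and Col6a2, of type VI. Col16a1, the FACIT gene lower in TC, was outside these 10 but among the 10 highest within each group. The beaded filaments of type VI are built from Col6a1, Col6a2 and a further chain, usually Col6a3. Col6a1 (ENSMUSG00000001119, chr10:76708792-76726168, minus strand) went from 1154 and 1106 CPM in EV to 395.2 in TC and 505.6, 516.3 and 484.3 in TC + ATA. Col6a2 (ENSMUSG00000020241, chr10:76595762-76623630, minus strand) went from 789.6 and 693.2 CPM in EV to 211.9 in TC and 269.7, 274.1 and 258.9 in TC + ATA. Col6a3 (ENSMUSG00000048126, chr1:90765923-90843971, minus strand) went from 359.9 and 315.2 CPM to 254.2 in TC and 265.9, 271.3 and 256.9 in TC + ATA. All 3 were lower in every TC-expressing library than in either EV library, and the share of all genes with such a separation was not counted. In TC, Col6a1 was 2.86-fold lower (log2 -1.52 ± 0.10, adjusted p = 7.889e-06), Col6a2 3.50-fold lower (-1.81 ± 0.11, adjusted p = 5.84e-06) and Col6a3 1.33-fold lower (-0.41 ± 0.10, adjusted p = 0.01533). The 95% intervals of Col6a1 (-1.74 to -1.29) and Col6a3 (-0.64 to -0.18) did not overlap, and the difference itself was not tested. The call of Col6a3 was lost without TC + ATA replicate 2, in the fit of EV and TC alone and with a replicate block. Those of Col6a1 and Col6a2 were kept in each of these fits.

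Col6a4, another type VI chain, went the other way from a near-background level. It had 15 and 14 counts in EV, 192 in TC and 195, 250 and 209 in TC + ATA, or 0.201 and 0.184 CPM against 2.77 and 3.01 to 3.53. The change was 14.3-fold in TC (log2 3.84 ± 0.28, adjusted p = 1.47e-05), and the gene shares 289 exon bases with Gm36993 and Gm47575 on the opposite strand, so that its counts are uncertain to that extent. Col6a5 and Col6a6, its neighbours on chromosome 9, had 0 to 6 counts per library.

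Col7a1, the anchoring fibril collagen, was at 6.11 and 9.82 CPM in EV, 28.6 in TC and 30.3, 24.9 and 31.2 in TC + ATA. It was 3.59-fold higher in TC (log2 1.84 ± 0.23, adjusted p = 0.0003626) and 3.61-fold higher in TC + ATA (1.85 ± 0.19, adjusted p = 7.573e-05). Col28a1, a small collagen of the nerve sheath, fell from 1.62 and 2.49 CPM to 0.475 in TC and 0.494 to 0.528 in TC + ATA (log2 -2.11 in TC, adjusted p = 0.005396). Col17a1, a transmembrane collagen of hemidesmosomes, had 115 and 106 counts in EV, 35 in TC and 28, 41 and 4 in TC + ATA, so TC + ATA replicate 3 stood apart. It did not pass in TC (adjusted p = 0.229) and passed in TC + ATA versus EV (log2 -1.97, adjusted p = 0.03217), a call lost without TC + ATA replicate 1 (0.0517). It passed in TC versus EV without TC + ATA replicate 3 (0.03891) and in the fit of EV and TC alone (0.02803). Col18a1, the source of endostatin, passed only in TC + ATA versus EV (-0.46 ± 0.11, adjusted p = 0.0108), a call lost with a replicate block. The difference between its changes in TC and TC + ATA had an interval of -0.52 to 0.13. Col8a1, Col10a1 and Col15a1 did not pass in either comparison with EV.

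Ratios of partner chains within a library do not depend on scaling, and their change between groups does not depend on the length used. Per kilobase, Col4a5 to Col4a6 was 1.74 and 1.73 in EV, 2.99 in TC and 2.78, 2.89 and 2.76 in TC + ATA. Col6a1 to Col6a3 was 8.75 and 9.59 in EV, 4.25 in TC and 5.19, 5.20 and 5.15 in TC + ATA, while Col6a1 to Col6a2 was 2.78 and 3.03 in EV, 3.55 in TC and 3.56 to 3.58 in TC + ATA. In these 3 ratios the EV libraries and the TC-expressing libraries did not overlap, and how often ratios of other genes separate so was not counted. Col4a1 to Col4a2 stayed between 1.37 and 1.57 in all 6 libraries, and TC and EV replicate 2 were both at 1.496 when rounded. Col1a1 to Col1a2 was 1.09 and 1.03 in EV, 1.25 in TC and 1.10, 1.06 and 1.06 in TC + ATA, and Col5a1 to Col5a2 was 0.930 and 0.952 in EV, 1.09 in TC and 1.02, 1.00 and 0.993 in TC + ATA. For both of these the TC library was above all others. With 1 TC library these ratios were not tested.

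**Figure D4:**
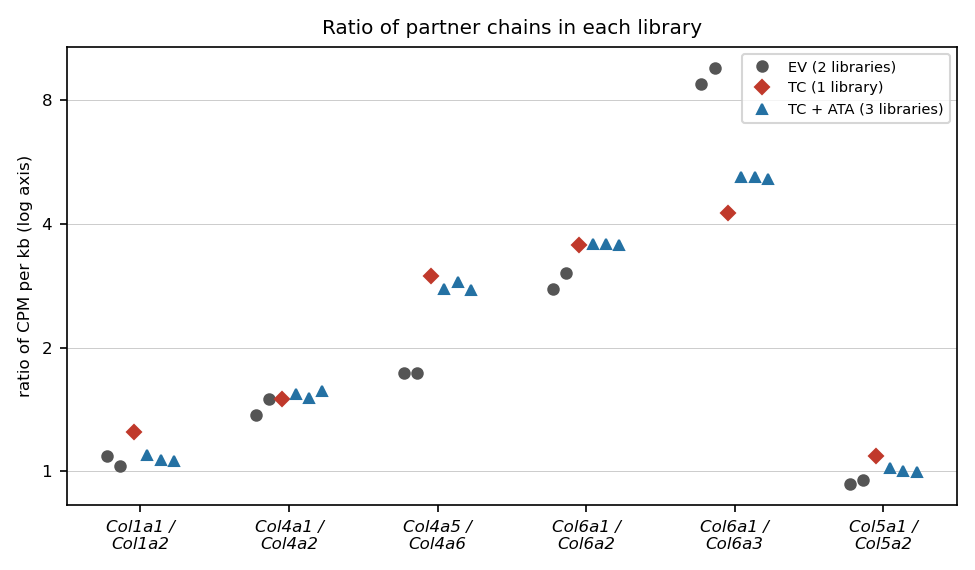
Ratio of CPM per kilobase of exon between chains of one collagen type (y axis, log scale) in each library (grey circles EV, red diamond TC, blue triangles TC + ATA). Col4a5 to Col4a6 is near 1.74 in EV and between 2.76 and 2.99 in the TC-expressing libraries, Col6a1 to Col6a3 is 8.75 and 9.59 in EV and at most 5.20 in the others, and Col4a1 to Col4a2 stays between 1.37 and 1.57.

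TC + ATA was compared with TC to read what 48 h of the compound did to these levels. No collagen passed at an adjusted p of at most 0.05 with edgeR, beside 0.426% of the 18539 genes called higher and 0.156% called lower. At an unadjusted p under 0.05 there were 7 of the 31 collagens, all higher in TC + ATA: Col6a1, Col6a2, Col5a2, Col11a1, Col4a6, Col4a5 and Col16a1. Over all 18539 genes the same limit held 1781, of which 1048 were higher and 733 lower. DESeq2 called 5 of the collagens higher (Col16a1, Col4a5, Col4a6, Col6a1 and Col6a2) and none lower, and a fit of the TC and TC + ATA libraries alone called 7 higher, those 5 with Col1a2 and Col5a2. The same 7 genes were called when either EV library was left out of the fit, and these fits too take their spread from the TC + ATA libraries alone. All of these rest on the single TC library. The TC library lay below each of the 3 TC + ATA libraries for 15 of the 31 genes (48.4%, against 30.5% of all genes tested) and above each of them for 4 (12.9%, against 32.7%). The median log2 fold change was 0.09 over the collagens and 0.00 over all genes tested (0.003289 before rounding). Above 0 were 24 of the 31 collagens and 9389 of the 18539 genes.

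The sizes were small. Col6a1 went from 395.2 CPM in TC to 502.1 ± 16.3 (SD, n = 3) in TC + ATA, a log2 change of 0.35 (95% interval 0.15 to 0.55, adjusted p = 0.1765), which left it far below the EV mean of 1130 ± 33.4 (SD, n = 2). Col6a2 went from 211.9 to 267.6 ± 7.82 CPM (0.34, interval 0.11 to 0.56, adjusted p = 0.254) and Col16a1 from 180.5 to 220.7 ± 2.27 CPM (0.29, interval 0.11 to 0.47, adjusted p = 0.2294). These 3 genes were lower in TC than in EV, and their TC + ATA libraries lay between TC and EV. Col11a1, also lower in TC, changed by 0.58 (interval 0.14 to 1.02, adjusted p = 0.3479).

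None of the type IV chains, higher in TC than in EV, passed the test as lower with ATA. Col4a6 went from 112.7 to 146.8 ± 2.58 CPM (0.38, interval 0.20 to 0.56, adjusted p = 0.09366) and Col4a5 from 284.2 to 347.7 ± 10.2 CPM (0.29, interval 0.10 to 0.48, adjusted p = 0.247), farther from EV than TC was. Col4a1 (0.09, interval -0.12 to 0.30) and Col4a2 (0.05, interval -0.20 to 0.30) had intervals that include 0. Col4a4 went the other way, with all 3 TC + ATA libraries below TC, at few counts (-1.14, interval -2.91 to 0.63). Its change ran from -1.77 to -0.83 over the libraries left out 1 at a time. For Col12a1 (0.05, interval -0.15 to 0.25) and Col7a1 (0.01, interval -0.48 to 0.50, with the sign turning when TC + ATA replicate 1 or 3 was left out) the intervals also included 0. Col1a1 was the only 1 of the 10 collagens highest per kilobase with a lower mean in TC + ATA, at 4027 ± 173.2 CPM against 4356 in TC (-0.11, interval -0.37 to 0.15). A p-value that misses the threshold does not show that the groups are alike, and the intervals give the changes that remain possible.

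**Figure D5:**
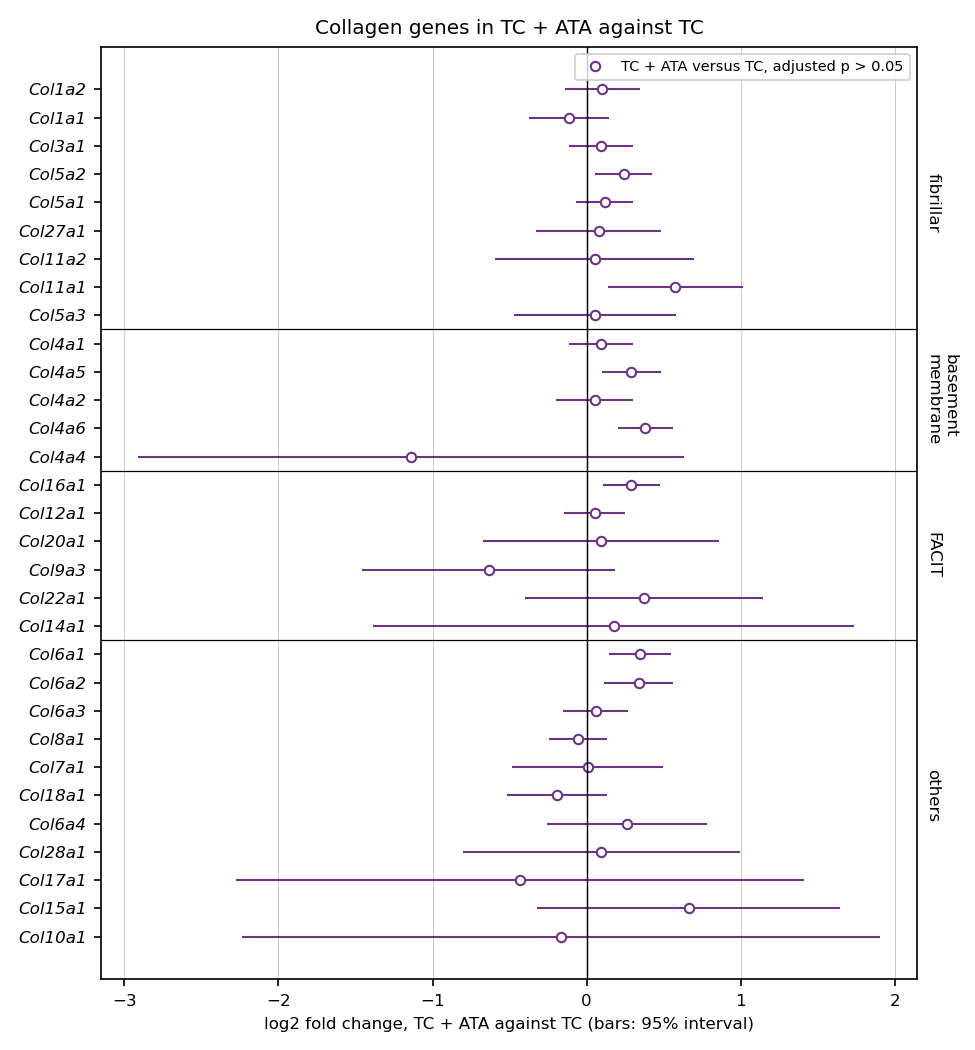
Log2 fold change of each tested collagen gene in TC + ATA against TC (x axis; bars, 95% interval from the fit; y axis, genes by class). All 31 symbols are open because none has an adjusted p of at most 0.05, and 24 of them lie right of 0, where 9389 of all 18539 genes tested lie.

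The genes that modify, process, crosslink, bind and degrade collagen were read beside the chains as 52 genes in 5 lists, of which 43 were tested. In TC versus EV 18 were higher and 7 lower, against 14.8% and 13.2% of all genes tested, in TC + ATA versus EV 22 were higher and 10 lower, against 18.0% and 18.6%, and in TC + ATA versus TC 1 was higher and none lower, against 0.426% and 0.156%. Among 18 tested genes of chain modification and folding, 7 were higher in TC and 2 lower. Serpinh1, the collagen chaperone of the endoplasmic reticulum, went from 1117 and 1005 CPM in EV to 1733 in TC and 1829, 1802 and 1745 in TC + ATA (log2 0.71 in TC, adjusted p = 0.0009025). Plod2, a lysyl hydroxylase of the telopeptides, went from 21.7 and 24.9 to 45.2 CPM in TC (0.95, adjusted p = 0.0001284), and P4ha1, a prolyl 4-hydroxylase subunit, from 231.1 and 201.1 to 349.7 CPM (0.69, adjusted p = 0.0008089). P3h3, of the prolyl 3-hydroxylase family, fell from 129.2 and 151.5 to 71.7 CPM (-0.97, adjusted p = 0.0001625), and Sec31a, a coat protein of secretory vesicles, fell from 351.8 and 325.0 to 275.6 CPM (-0.30, adjusted p = 0.03757).

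Of 6 tested genes for propeptide removal, 3 were higher in TC and 1 lower, where 14.8% and 13.2% of all genes were. Pcolce, the enhancer of the C-proteinase, went from 438.4 and 355.6 CPM in EV to 884.5 in TC and 1047, 992.0 and 995.6 in TC + ATA (log2 1.16 in TC, adjusted p = 0.0001399). The C-proteinase Bmp1 was higher as well (0.87, adjusted p = 0.001819). The N-proteinases parted, with Adamts14 higher (0.69, adjusted p = 0.002568) and Adamts2 lower, from 131.0 and 135.2 CPM to 51.0 in TC and 66.3, 71.1 and 63.9 in TC + ATA (-1.38, adjusted p = 1.051e-05). The 5 lysyl oxidases, which start collagen crosslinks, split into 3 higher and 2 lower. Loxl4 went from 31.7 and 35.4 to 134.1 CPM in TC (2.00, adjusted p = 1.622e-06) and Loxl3 from 104.7 and 102.6 to 210.2 CPM (1.02, adjusted p = 1.835e-05), while Lox fell from 1761 and 1617 to 905.1 CPM (-0.90, adjusted p = 0.0002491) and Loxl1 from 466.1 and 407.9 to 257.0 CPM (-0.77, adjusted p = 0.0006572).

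Of 8 tested collagen receptors, 4 were higher in TC and 1 was lower, the latter close to the 13.2% of all genes called lower. Ddr1, a receptor tyrosine kinase for collagen, went from 78.8 and 71.6 CPM in EV to 248.3 in TC and 278.7, 255.2 and 262.3 in TC + ATA (log2 1.72 in TC, adjusted p = 2.507e-06). Its relative Ddr2 (0.65, adjusted p = 0.0004127) and Itgb1, the shared beta subunit of collagen-binding integrins (0.90, adjusted p = 0.0001054), were higher too. Itga11, the integrin chain that pairs with Itgb1 to bind fibrillar collagen, went from 15.6 and 13.6 CPM in EV to 3.24 in TC and 7.25, 7.01 and 6.74 in TC + ATA. Itga11 was lower in TC than in EV (-2.17 ± 0.16, adjusted p = 1.456e-05). It was the 1 gene of the 5 lists called in TC + ATA versus TC (1.11 ± 0.15, adjusted p = 0.01532), with all 3 TC + ATA libraries between TC and EV. Both calls rest on the single TC library, and their outcome in the other fits is not given here. Of 6 tested genes for collagen degradation, 1 was higher and 1 lower in TC, close to the 14.8% and 13.2% of all genes. Mmp14, a membrane-bound collagenase, stood at 206.1 and 204.0 CPM in EV, 268.1 in TC and 373.0, 360.5 and 340.4 in TC + ATA (0.39 in TC, adjusted p = 0.009768).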

How the data were processed

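Raw gene counts were deposited for each of 6 libraries. Per the labels and the study's methods, the authors prepared poly(A) libraries (NEBNext Ultra II), sequenced paired ends on an Illumina instrument, aligned them to mm10 with HISAT2 2.2.1 and counted reads with featureCounts. The annotation release and strand setting are not given in the sources used here. Gene symbols, positions and exon lengths came from GENCODE M21, which held 55141 of the 55401 gene IDs. Collagen genes, classes, gene lists and tests were chosen with earlier results of these data known. Groups came from the labels. The counts were fitted with edgeR 4.0.16 (R 4.3.3) in 1 quasi-likelihood model over all 6 libraries (group means, TMM, filterByExpr with a minimum count of 10, 3 residual degrees of freedom), with Benjamini-Hochberg adjustment over 18539 genes and calls at 0.05. The script was tested on simulated data. Standard errors are the fold change over the root of F. CPM use TMM-scaled sizes, and shares use library totals. Genes named are the 10 collagens highest per kilobase, collagens called against EV with an absolute log2 fold change of at least 1, those called with ATA, the head-to-head type IV pairs, untested collagens by name, and from each list up to 3 called genes in each direction with a mean of at least 5 CPM. Other collagens of a class are mentioned to complete its account and were chosen after their values were seen. Alternatives were DESeq2 1.42.0, the compared groups alone, other scalings and filters, a replicate block, and leaving out each library. The authors' fold changes were not used. Intervals and floors cover counting error or the spread between libraries only. The immune marker list was read as 4 genes, and a further gene planned for it is not reported here.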

Additional observations from a re-analysis of the deposited data

How the results depend on the processing

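Requiring an absolute log2 fold change of at least 2 as well left 2 collagens higher and 2 lower in TC versus EV (674 genes in all), 1 and 1 in TC + ATA versus EV (717) and 10 genes in all in TC + ATA versus TC. With only the compared groups in the fit, 3315 genes were called in TC versus EV, and 7 collagens were higher among 1403 genes called in TC + ATA versus TC. DESeq2 called 5 collagens higher among 398 genes in TC + ATA versus TC, and testing every gene with at least 1 count called 1 (Col4a6) among 350. Leaving out 1 library at a time gave 0 to 7 collagens higher in TC + ATA versus TC and 10 to 1470 genes called in all; where a group is reduced to 1 library it was assumed to vary like the others. TC versus EV cannot be fitted without the TC library. With library totals, the log2 fold change of Col3a1 in TC versus EV was -0.06172, and over the libraries left out 1 at a time it ran from -0.01043 (without EV replicate 1) to 0.1034. Leaving out libraries when ATA was set against TC gave -0.05398 (without TC + ATA replicate 3; -0.02868 without replicate 1) to 0.1033 for Col7a1, -0.01941 (without replicate 3) to 0.1106 for Col5a3 and -0.9214 to 0.09031 (without replicate 3) for Col17a1. None of these passed the test in any of these fits, and the cause was not tested.

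Replicate numbers are shared by EV and TC + ATA (1 and 2), with TC holding only number 1. Deviations from the group means correlated at -0.029 and -0.086 between same-numbered libraries. With 2 EV libraries their deviations mirror each other, so these values are not independent and cannot settle whether same-numbered libraries were paired. The labels do not say either. With a replicate block, 6 collagens were higher in TC versus EV (Col1a1, Col5a1, Col4a6 and Col4a4 lost) and Col27a1 and Col6a3 were no longer called lower (3184 genes called in all). In TC + ATA versus EV, 9 collagens were higher and 9 lower (4645 genes called in all). The calls lost there were those of Col1a1 and Col1a2 (edgeR adjusted p 0.05414 and 0.07991), Col18a1 and Col6a3. In TC + ATA versus TC, 40 genes were called. In that comparison the block turned Col7a1 to -0.1307, Col5a3 to -0.1841, Col28a1 to -0.04969 and Col17a1 to 0.07586, none of which passed.

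With TMM effective sizes in place of library totals, the ratio of the summed share of TC to EV and of TC + ATA to EV was 1.147 and 1.199 for all collagens, 1.278 and 1.312 for fibrillar, 2.088 and 2.328 for basement membrane and 0.430 and 0.5035 for the other collagens. With the longest transcript as the length, 9 of the 10 highest collagens stayed among the 10, and the ratios in EV, TC and TC + ATA were 0.5053, 0.5931 and 0.5108 for Col1a1 to Col1a2, 1.577, 1.645 and 1.693 for Col4a1 to Col4a2 and 1.831, 2.235 and 2.248 for Col6a1 to Col6a2. Depth limits the chains under about 1 CPM, such as Col4a4, Col17a1 and Col28a1.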
